A study of Mus musculus with 6 samples.

Results

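The genes described here are 63 of the 491 named genes in the comparison table of a study of primary mouse embryonic fibroblasts (MEFs) without Bahd1. They were chosen by their measured values: each of the 3 Bahd1-KO arrays lay below each of the 3 Bahd1-WT arrays, and the Bahd1-KO mean lay at least 0.3 below the Bahd1-WT mean on the log2 scale, on which a difference of -1 is a halving. The same conditions were met by 81 named genes, and 18 of these were left out by name (the Hox genes, the imprinted genes Dlk1, Meg3 and Rtl1, and Car9, Pdk1, Bnip3, Lum, Chst14, Apoe, Sox4 and Acot2 among them). Because the rule used the difference between the genotypes, every such difference below is a description and carries no test.

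BAHD1 is a chromatin protein that takes part in heterochromatin formation and in gene repression. MEFs are mesenchymal cells taken from the body of an embryo, and a culture holds fibroblasts of many origins, which keep the transcription factor patterns of the place they came from and secrete growth factors, proteoglycans and matrix proteins. The 63 genes include several kinds of product known from such cells: patterning factors, matrix and secreted proteins, receptors, and enzymes of glycogen use and of the response to low nutrients or stress.

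The Bahd1-KO cells came from Bahd1-/- embryos, in which BAHD1 was ablated in the whole animal, and the Bahd1-WT cells from Bahd1+/+ embryos, all from crosses of heterozygous mice on a C57BL/6 background at stage E13.5. Each embryo was beheaded and processed by itself, the fibroblasts were frozen, thawed once and grown for 1 passage, and the RNA of each embryo was run on 1 Mouse Exon 1.0 ST array (n = 3 embryos per genotype). The cells had no treatment that separates the groups, and the sex of the embryos was not stated. Loss of Bahd1 could not be checked here. The comparison table, the only source of gene names, holds only rows called by the study's own test, and none carries that symbol. The study states that it verified the knockout by RT-qPCR, in MEFs among other samples.

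Facts that bear on all values are few. Array medians over the 23332 transcript clusters lay between 5.01 and 5.06, and 2 arrays of the same genotype correlated at 0.985 to 0.990, against 0.984 to 0.988 for arrays of different genotype (Pearson's r across clusters, which are not independent replicates). Y-linked genes (the mean of Ddx3y, Kdm5d and Eif2s3y) split the arrays otherwise than the genotype did: their level was 7.06 and 7.03 in Bahd1-KO 2 and 3 and 7.19 in Bahd1-WT 2, and 2.38 in Bahd1-KO 1, 2.36 in Bahd1-WT 1 and 2.38 in Bahd1-WT 3. Of the 2 fibroblast markers of a list of 10 that the table names, Pdgfra was a member and Lum had a difference of -0.59. Of the markers of other cells the table names only 6: 1 of 6 endothelial, 2 of 5 epithelial, 1 of 6 skeletal muscle, 1 of 6 macrophage and 1 of 5 neural markers, and 0 for cartilage, erythroid cells and adipocytes. The differences were 1.25 for the endothelial gene Emcn, 1.08 and 0.86 for the epithelial keratins Krt18 and Krt19, 0.80 for the muscle gene Des, 0.43 for the macrophage gene Csf1r and -0.29 for the neural gene Stmn2. The table names only genes that the study's own test called, so most markers of every list were not among the called genes. The part of this marker pattern in the results was not tested, and in bulk RNA fewer cells of a type and less RNA per cell cannot be told apart.

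Over all 23332 clusters, 696 met the same 2 conditions, which is 2.98%, and 1063 (4.56%) met the mirrored ones, higher in every Bahd1-KO array by at least 0.3. In a limma fit with Benjamini-Hochberg adjustment over all clusters, 0 clusters were called lower (0%) and 0 higher at an adjusted p of 0.05, with a smallest adjusted p of 0.222, so that 0 of the 63 members were called. At an unadjusted p under 0.05, limma gave 898 lower and 1527 higher clusters, and the local pooled error (LPE) test rebuilt from its description called 176 lower and 208 higher after adjustment. The members are therefore genes whose arrays were apart, not genes called by the limma fit over all clusters, which takes each gene's own spread into account. How many of them the rebuilt test called was not counted.

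The median difference of the 63 members was -0.48, beside 0.017 over all clusters, of which 10701 were lower in Bahd1-KO. It was between -1.34 (Alx1) and -0.31 (Ypel3). A difference at or under -0.5 was found for 30 members and at or under -1 for 3, namely Alx1, Spock3 and Sim2. The standard errors from the limma fit had a median of 0.137 and lay between 0.077 and 0.344. The empty space between the highest Bahd1-KO array and the lowest Bahd1-WT array was 0.16 at the median, 0.77 for Alx1 and only 0.015 for Pygl, so that for many members a small shift of 1 array would have closed it. Just inside the limit stood Spp1 (-0.32), Mcts1 (-0.32) and Ypel3 (-0.31), and just outside it, with arrays also apart, Rpl27a (-0.29), Asnsd1 (-0.28) and Arf1 (-0.27). Rpl27a, a ribosomal protein gene, had 10.61, 10.48 and 10.50 in Bahd1-KO and 10.67, 10.85 and 10.94 in Bahd1-WT. Asnsd1 had 9.10, 9.15 and 9.04 in Bahd1-KO and 9.22, 9.42 and 9.47 in Bahd1-WT, and Arf1, a small GTPase of vesicle traffic, had 10.40, 10.49 and 10.67 in Bahd1-KO and 10.82, 10.83 and 10.73 in Bahd1-WT. These 3 genes differ from the last members only in not reaching the limit. A further 33 named genes had a difference at or under -0.3 but overlapping arrays, the lowest being Try5 at -1.01, and the gaps nearest to 0 were those of Vamp7 (-0.0057) and Appl2 (-0.011).

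**Figure D1:**
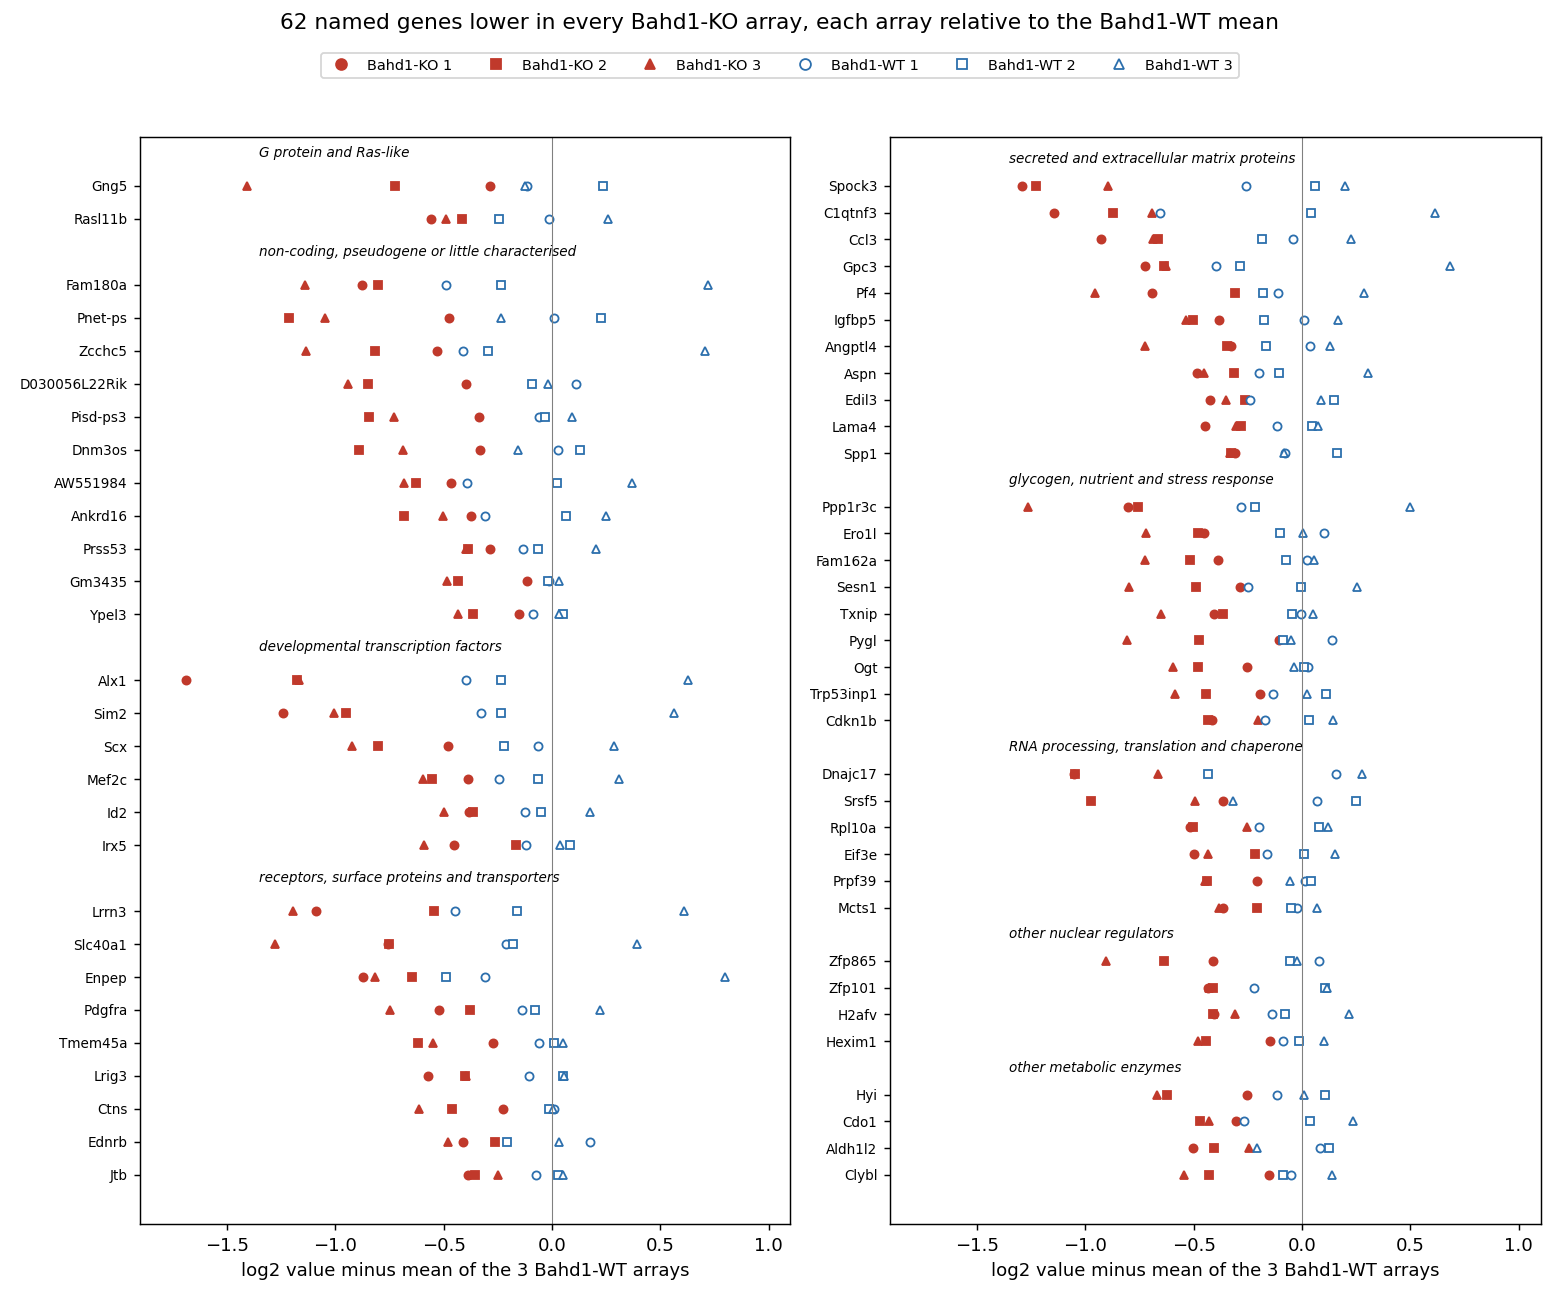
Log2 values of 62 of the 63 members in each of the 6 arrays, drawn relative to the mean of the 3 Bahd1-WT arrays and ordered by gene group (filled red symbols, Bahd1-KO 1 to 3; open blue symbols, Bahd1-WT 1 to 3). By the rule, every filled symbol lies left of every open one, and the distance between the 2 sets is widest for Alx1 (0.77).

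Developmental transcription factors made up 7 of the members, with a median difference of -0.51. The lowest was Alx1, a homeobox factor of craniofacial and limb mesenchyme. It measured 5.17, 5.68 and 5.69 in the Bahd1-KO arrays, against 6.46, 6.62 and 7.49 in the Bahd1-WT arrays. The means were 5.51 ± 0.30 and 6.86 ± 0.55 (SD, n = 3 each), a Bahd1-KO level of 39.4% of Bahd1-WT and a difference of -1.34 ± 0.31 (SE). Bahd1-WT 3 lay far above the other Bahd1-WT arrays, so the spread within Bahd1-WT was wide, yet the lowest Bahd1-WT array stood well clear of Bahd1-KO. Sim2, a basic helix-loop-helix factor of the PAS family that mostly represses its targets, gave 7.25, 7.54 and 7.49 in Bahd1-KO and 8.17, 8.26 and 9.06 in Bahd1-WT (difference -1.07 ± 0.25, SE), again with Bahd1-WT 3 alone at the top.

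Scx, the factor that marks tendon progenitors, had values of 7.14, 6.81 and 6.69 in Bahd1-KO and 7.55, 7.39 and 7.90 in Bahd1-WT (-0.73). Mef2c, a MADS-box factor of muscle, heart and neural crest derivatives, had 6.37, 6.20 and 6.16 in Bahd1-KO and 6.51, 6.69 and 7.07 in Bahd1-WT (-0.51). In both, Bahd1-KO 3 was the lowest array and Bahd1-WT 3 the highest. Id2, which pairs with basic helix-loop-helix factors and keeps them off DNA, was even within each genotype, with 8.98, 9.00 and 8.86 in Bahd1-KO and 9.23, 9.31 and 9.54 in Bahd1-WT (-0.42 ± 0.10, SE). Irx5, an Iroquois homeobox factor, had 5.53, 5.82 and 5.39 in Bahd1-KO and 5.87, 6.07 and 6.03 in Bahd1-WT (-0.40), with Bahd1-KO 2 only just under Bahd1-WT 1. The counts by description that follow are to be read against the whole table, in which 137 of the 491 named genes were lower and 354 higher in mean. Of these 491, 11 have "homeobox" in their description, of which 10 were lower and 1 was higher in mean. Alx1 and Irx5 are among the 10, and so are Hoxa2, Hoxa4, Hoxa5, Hoxa6, Hoxa7, Hoxa9 and Hoxc4, which were left out by name. These Hoxa genes are neighbours on chromosome 6, so nothing is read from this count about the members.

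Another 4 members act in the nucleus. H2afv, which codes for a variant histone of the H2A.Z type, was at 9.22, 9.21 and 9.31 in Bahd1-KO and at 9.48, 9.54 and 9.84 in Bahd1-WT (-0.37). Hexim1, which holds the elongation kinase P-TEFb inactive, was at 7.42, 7.13 and 7.09 in Bahd1-KO and 7.48, 7.56 and 7.67 in Bahd1-WT (-0.36). The gap for Hexim1 was narrow, 0.060, since Bahd1-KO 1 lay close to Bahd1-WT 1. The zinc finger genes Zfp865 and Zfp101 had differences of -0.65 and -0.42. Zfp865 had 6.31, 6.08 and 5.82 in Bahd1-KO and 6.80, 6.67 and 6.70 in Bahd1-WT, whereas the Zfp101 values were nearly the same in the 3 Bahd1-KO arrays (5.48, 5.51 and 5.49) and higher and more uneven in Bahd1-WT (5.69, 6.02 and 6.03). Of 8 named genes described as zinc finger proteins, 5 were lower and 3 higher in mean, and of 7 described as histones, 5 were lower and 2 higher (137 lower and 354 higher in the whole table). With so few genes nothing is read from these counts.

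**Figure D2:**
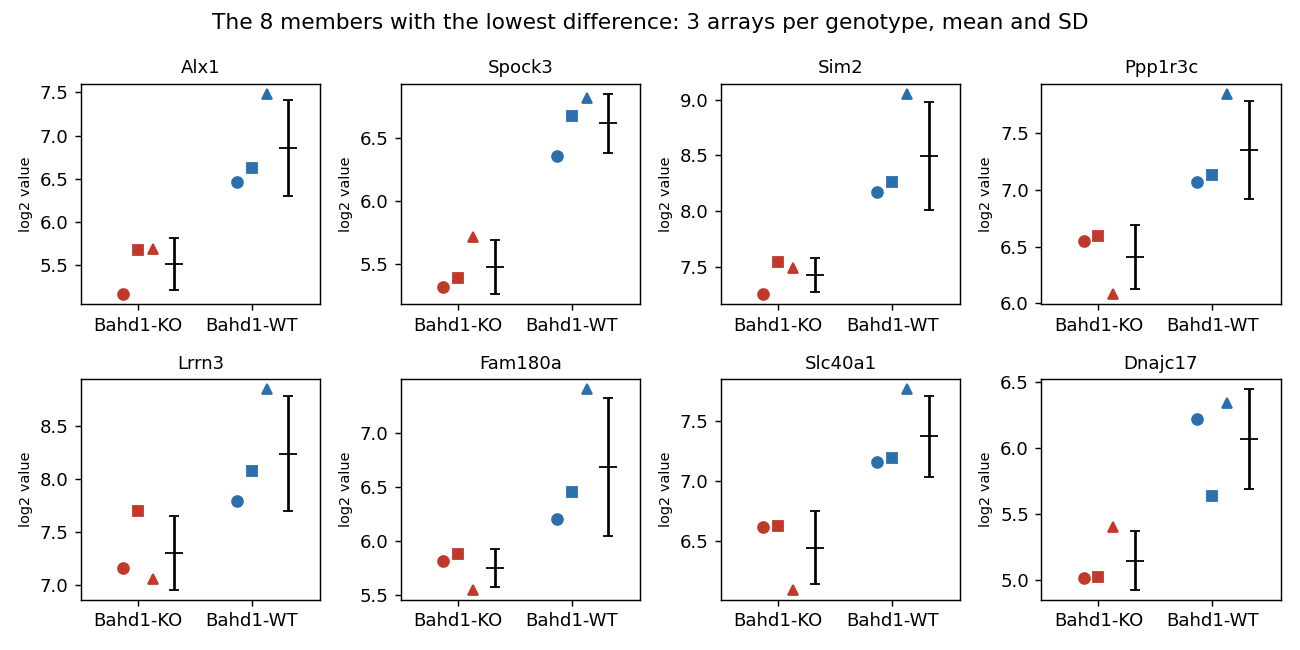
Log2 values of the 8 members with the lowest difference, in the 3 Bahd1-KO arrays (red) and the 3 Bahd1-WT arrays (blue; circle, square and triangle are replicates 1, 2 and 3), with the mean and SD beside them. Bahd1-WT 3 is the highest array in all 8 panels, and each y axis has its own range.

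Secreted and extracellular matrix proteins were 11 of the members (median -0.47). Spock3, a calcium-binding proteoglycan of the testican family, had the second lowest difference of all. It measured 5.32, 5.39 and 5.72 in Bahd1-KO and 6.35, 6.67 and 6.81 in Bahd1-WT, means of 5.47 ± 0.21 and 6.61 ± 0.23 (SD, n = 3 each), which puts Bahd1-KO at 45.4% of Bahd1-WT. Its difference, -1.14 ± 0.16 (SE), was large beside the spread of either genotype, and none of the 6 arrays stood far from its group. C1qtnf3, a secreted protein of the C1q and TNF family, was uneven, with 8.36, 8.63 and 8.81 in Bahd1-KO and 8.85, 9.55 and 10.12 in Bahd1-WT. Its mean difference of -0.90 ± 0.33 (SE) was -0.59 without Bahd1-WT 3, and its lowest Bahd1-WT array was only just above Bahd1-KO 3.

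Gpc3, a cell-surface heparan sulfate proteoglycan that restrains growth in the embryo, measured 9.27, 9.35 and 9.36 in Bahd1-KO and 9.59, 9.70 and 10.67 in Bahd1-WT. Here too 1 array set the size: the difference of -0.66 became -0.32 without Bahd1-WT 3. Aspn, a small leucine-rich proteoglycan of tendon and cartilage, had 10.11, 10.28 and 10.15 in Bahd1-KO and 10.40, 10.49 and 10.90 in Bahd1-WT, and its difference of -0.42 was -0.27 without the same array. Igfbp5, which binds insulin-like growth factors in the matrix, was less dependent on 1 array, with 9.55, 9.43 and 9.40 in Bahd1-KO and 9.94, 9.76 and 10.10 in Bahd1-WT (-0.47 ± 0.11, SE). Spp1 (osteopontin), a secreted matrix phosphoprotein, had almost the same value in the Bahd1-KO arrays, 11.25, 11.23 and 11.22, and 11.48, 11.72 and 11.47 in Bahd1-WT (-0.32). The differences were -0.35 for Edil3, a secreted integrin ligand, and -0.34 for Lama4, a laminin chain of vessel and muscle basement membranes.

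Ccl3, an attractant of leukocytes, measured 7.29, 7.55 and 7.53 in Bahd1-KO and 8.17, 8.03 and 8.44 in Bahd1-WT, a difference of -0.76 ± 0.14 (SE). Of 7 named genes described as chemokines, Ccl3 was lower and the other 6 were higher in mean, a split near that of the whole table, in which 354 of 491 were higher. Pf4 is a platelet chemokine whose description does not use that word, and it had 7.14, 7.52 and 6.87 in Bahd1-KO and 7.72, 7.65 and 8.11 in Bahd1-WT (-0.65). In the annotation of the deposited table Pf4 lies 2.40 kb from Ppbp, a chemokine gene of the same family on chromosome 5, which differed the other way, with 7.44, 7.30 and 7.20 in Bahd1-KO and 6.46, 6.68 and 6.39 in Bahd1-WT (0.80). Farther along, at 296 and 361 kb, the growth factor genes Ereg and Areg were higher as well, by 0.70 and 0.95. The lower value of Pf4 thus stood among neighbours with higher ones. Angptl4, a secreted inhibitor of lipoprotein lipase, had 8.62, 8.60 and 8.23 in Bahd1-KO and 8.99, 8.78 and 9.08 in Bahd1-WT (-0.47), with Bahd1-KO 3 apart from the other Bahd1-KO arrays.

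Receptors, surface proteins and transporters were 9 of the members (median -0.48). Slc40a1 is ferroportin, the iron exporter of the cell membrane. It measured 6.62, 6.63 and 6.10 in Bahd1-KO and 7.16, 7.20 and 7.77 in Bahd1-WT, a difference of -0.93 ± 0.23 (SE) and a Bahd1-KO level of 52.6% of Bahd1-WT. Of 9 named solute carriers the other 8 were higher, where 354 of 491 named genes were. Pdgfra, the PDGF receptor of mesenchymal cells and a fibroblast marker, had 8.36, 8.50 and 8.13 in Bahd1-KO and 8.74, 8.80 and 9.10 in Bahd1-WT (-0.55 ± 0.14, SE). Of the 33 named genes with "receptor" in their description, 28 were higher in mean and 5 lower (354 and 137 of all 491), Pdgfra and the endothelin receptor gene Ednrb (-0.38) among the 5.

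Lrrn3, which codes for a membrane protein with leucine-rich repeats, was uneven, with 7.15, 7.70 and 7.05 in Bahd1-KO and 7.80, 8.08 and 8.85 in Bahd1-WT (-0.94 ± 0.32, SE), and its nearest arrays were 0.096 apart. Enpep, the aminopeptidase that acts on angiotensin II, had 5.63, 5.86 and 5.69 in Bahd1-KO and 6.20, 6.01 and 7.30 in Bahd1-WT. Without Bahd1-WT 3 its difference of -0.78 became -0.38, the largest such change in this group. More even were Lrig3, a membrane protein with leucine-rich repeats and immunoglobulin-like domains, and Ctns, the cystine exporter of lysosomes. Lrig3 had 7.43, 7.61 and 7.61 in Bahd1-KO and 7.90, 8.06 and 8.06 in Bahd1-WT (-0.46 ± 0.09, SE). Ctns had 6.61, 6.38 and 6.23 in Bahd1-KO, while its Bahd1-WT values of 6.85, 6.83 and 6.85 were nearly identical (-0.43). Tmem45a, a transmembrane protein, had 7.35, 7.00 and 7.07 in Bahd1-KO and 7.56, 7.63 and 7.67 in Bahd1-WT (-0.48), and Jtb closed the group at -0.33.

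A group of 9 members takes part in glycogen use, in sensing nutrients and in the response to stress (median -0.47). Ppp1r3c brings protein phosphatase 1 to glycogen and promotes its storage. It measured 6.55, 6.59 and 6.08 in Bahd1-KO and 7.07, 7.13 and 7.85 in Bahd1-WT, a difference of -0.94 ± 0.25 (SE), which puts Bahd1-KO at 52.0% of Bahd1-WT. Pygl, the liver form of glycogen phosphorylase, which breaks glycogen down, had 6.91, 6.54 and 6.21 in Bahd1-KO and 7.16, 6.93 and 6.97 in Bahd1-WT (-0.46). Bahd1-KO 1 nearly touched Bahd1-WT in Pygl, and without Bahd1-KO 3 the difference was -0.29. A gene for glycogen storage and a gene for glycogen breakdown were thus both lower.

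Ero1l, the oxidase that forms disulfide bonds in the endoplasmic reticulum, had 8.60, 8.57 and 8.33 in Bahd1-KO and 9.15, 8.94 and 9.05 in Bahd1-WT (-0.55 ± 0.11, SE). Fam162a, a mitochondrial protein known in human cells as a target of the hypoxia-inducible factor, was tight in Bahd1-WT, with 10.06, 9.93 and 9.72 in Bahd1-KO and 10.47, 10.37 and 10.50 in Bahd1-WT (-0.54 ± 0.11, SE). Txnip, the glucose-induced inhibitor of thioredoxin, had 9.23, 9.27 and 8.98 in Bahd1-KO and 9.63, 9.59 and 9.69 in Bahd1-WT (-0.47 ± 0.10, SE). In these 3 genes the SDs were 0.15, 0.17 and 0.15 in Bahd1-KO and 0.10, 0.067 and 0.050 in Bahd1-WT, in the order named. Bahd1-KO 3 was the lowest array each time. Sesn1, a p53 target that restrains growth signalling when nutrients are short, was more spread, with 7.63, 7.43 and 7.12 in Bahd1-KO and 7.67, 7.92 and 8.18 in Bahd1-WT (-0.52). Differences were -0.44 for Ogt, which attaches N-acetylglucosamine to nuclear and cytosolic proteins, -0.41 for the p53 target Trp53inp1, and -0.35 for Cdkn1b, the cell cycle inhibitor p27.

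The promoters of Ppp1r3c, Pygl, Fam162a and Ero1l, picked after their values and letters were seen, are shown because these 4 are the members of the glycogen, nutrient and stress group that hold both short motifs that basic helix-loop-helix PAS factors (hypoxia-inducible, Sim and aryl hydrocarbon receptor factors) are known to use. The sequences are from RefSeq (GRCm38.p6), in windows of 300 bases that end just after the start of the gene, all on the minus strand and printed 5′ to 3′ in the direction of transcription. Capitals mark ACGTG or, as the second motif, GCGTG, on either strand, so that reverse complements are in capitals too. The windows are chr19:36736555-36736854 for Ppp1r3c, chr12:70227634-70227933 for Pygl, chr16:36071512-36071811 for Fam162a and chr14:45318523-45318822 for Ero1l, which RefSeq names Ero1a.
Ppp1r3c: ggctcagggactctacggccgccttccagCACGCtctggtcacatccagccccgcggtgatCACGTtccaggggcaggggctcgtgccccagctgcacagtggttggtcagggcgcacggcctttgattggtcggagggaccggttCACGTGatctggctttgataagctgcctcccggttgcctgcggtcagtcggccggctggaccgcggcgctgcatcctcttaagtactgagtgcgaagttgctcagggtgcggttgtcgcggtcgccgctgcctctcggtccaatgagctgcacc
Pygl: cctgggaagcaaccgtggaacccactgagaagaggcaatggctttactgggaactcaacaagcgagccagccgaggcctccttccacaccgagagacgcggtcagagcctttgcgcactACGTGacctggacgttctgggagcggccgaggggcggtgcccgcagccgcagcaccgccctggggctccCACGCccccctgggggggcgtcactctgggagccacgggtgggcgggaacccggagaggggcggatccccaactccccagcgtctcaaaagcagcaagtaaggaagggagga
Fam162a: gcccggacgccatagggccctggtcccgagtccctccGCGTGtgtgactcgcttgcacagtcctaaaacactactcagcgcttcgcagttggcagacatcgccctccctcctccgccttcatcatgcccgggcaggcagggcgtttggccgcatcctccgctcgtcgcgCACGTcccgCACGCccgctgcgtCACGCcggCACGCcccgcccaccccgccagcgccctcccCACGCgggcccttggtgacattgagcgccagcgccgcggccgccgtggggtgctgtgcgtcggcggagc
Ero1l: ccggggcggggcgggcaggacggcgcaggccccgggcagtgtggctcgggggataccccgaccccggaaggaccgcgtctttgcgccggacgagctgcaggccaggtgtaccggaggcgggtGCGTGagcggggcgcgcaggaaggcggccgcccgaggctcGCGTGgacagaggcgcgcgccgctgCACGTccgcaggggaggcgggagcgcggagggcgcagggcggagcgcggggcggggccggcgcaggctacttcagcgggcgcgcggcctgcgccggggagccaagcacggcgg
Outside that group, AW551984, Lrig3, Prpf39 and Rpl10a have both motifs as well, so that the motifs do not set the 4 genes apart. The sequences hold 4, 2, 6 and 3 matches, in the order printed, and in Ppp1r3c an ACGTG on each strand overlaps in CACGTG. Promoters were found for 45 of the 63 members (57 promoters, since some genes have several starts). ACGTG occurred in 15 of the 57 (26.3%), beside 19.6% of all 32851 mouse promoters of the same length, and GCGTG in 40.4% beside 32.4%. Every CACGTG holds an ACGTG on each strand and was found in 7.02% of the member promoters, beside 7.15% of all. A TATAAA was found in 12.3% of them, beside 13.6% of all. The share with CCAAT was 50.9%, beside 37.4%, and that with GGGCGG was 50.9%, beside 35.7%. Shares for TGACCT were 10.5% and 16.3%. For the E-box CATCTG they were 17.5% and 17.2%. For the E-box CAGCTG they were 22.8% and 16.3%. All motifs were searched on both strands. The member promoters were also richer in CpG, with a median of 14 beside 7 over all promoters. The set of all promoters was not chosen by signal, whereas the members were bright clusters, at a median percentile of 78.7. The part of CpG and of brightness in the motif shares was not tested. A match is a description of the letters and not of binding.

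Enzymes of other pathways were 4 members (median -0.39). Hyi, described as a hydroxypyruvate isomerase, had 7.05, 6.68 and 6.64 in Bahd1-KO and 7.19, 7.41 and 7.31 in Bahd1-WT (-0.51). Cdo1, which starts the breakdown of cysteine, had 7.21, 7.04 and 7.08 in Bahd1-KO and 7.24, 7.55 and 7.75 in Bahd1-WT (-0.40), so that Bahd1-KO 1 and Bahd1-WT 1 were almost level. Aldh1l2, a mitochondrial enzyme of folate metabolism, had 6.25, 6.34 and 6.50 in Bahd1-KO and 6.83, 6.87 and 6.54 in Bahd1-WT (-0.38), and the mitochondrial lyase gene Clybl had a difference of -0.37. The gaps of the 4 lay between 0.033 (Cdo1) and 0.138 (Hyi).

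Genes for RNA processing, translation and a chaperone were 6 members (median -0.40). Dnajc17, a J-domain protein with an RNA recognition motif, measured 5.02, 5.02 and 5.40 in Bahd1-KO and 6.22, 5.63 and 6.34 in Bahd1-WT, a difference of -0.92 ± 0.22 (SE) and a Bahd1-KO level of 52.8% of Bahd1-WT. Dnajc17 lies near the ablated gene: in RefSeq it is protein-coding gene 8 after Bahd1 on chromosome 2, with 7 protein-coding genes between them. Chst14, gene 1 after Bahd1 and left out of the members by name, had 7.38, 7.56 and 7.46 in Bahd1-KO and 8.26, 8.25 and 8.36 in Bahd1-WT (-0.82). Both genes met the rule, which fixes that both were lower in every Bahd1-KO array. The deposited annotation puts 244 kb between them. Chst14 was the only named gene within 500 kb of Dnajc17. The other genes between Bahd1 and Dnajc17 were thus not among the named rows, which are those that the study's own test called. Any values they have among the 23332 clusters carry no name and could not be read here.

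Srsf5, a splicing factor rich in serine and arginine, had 8.89, 8.29 and 8.77 in Bahd1-KO and 9.33, 9.51 and 8.94 in Bahd1-WT (-0.61 ± 0.22, SE), with Bahd1-KO 1 and Bahd1-WT 3 nearly level. Prpf39, which works with the U1 particle in splicing, had 7.26, 7.03 and 7.02 in Bahd1-KO and 7.48, 7.51 and 7.41 in Bahd1-WT (-0.36). The translation genes had small differences. Rpl10a, a protein of the large ribosomal subunit, had 8.13, 8.15 and 8.40 in Bahd1-KO and 8.45, 8.73 and 8.77 in Bahd1-WT (-0.43). Eif3e, a subunit of initiation factor eIF3, had 9.66, 9.95 and 9.73 in Bahd1-KO and 10.00, 10.17 and 10.32 in Bahd1-WT (-0.38). Mcts1, which helps ribosomes to start again or be recycled, had 8.87, 9.03 and 8.85 in Bahd1-KO and 9.22, 9.19 and 9.31 in Bahd1-WT (-0.32 ± 0.08, SE), a small difference with a small spread. Of 5 named genes described as ribosomal proteins, 4 were lower and 1 higher (137 and 354 of all 491); only Rpl10a among them is a member. Ribosomal protein genes have many processed copies in the genome, so probes may be shared.

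Gng5 and Rasl11b, a gamma subunit of heterotrimeric G proteins and a small Ras-like GTPase, form a pair of signalling genes. Gng5 had 5.72, 5.28 and 4.60 in Bahd1-KO and 5.90, 6.25 and 5.89 in Bahd1-WT (-0.81 ± 0.29, SE). Its difference was -0.51 without Bahd1-KO 3. Rasl11b had 6.59, 6.73 and 6.66 in Bahd1-KO and 7.14, 6.91 and 7.41 in Bahd1-WT (-0.49), and was tight in Bahd1-KO.

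The remaining 11 members are non-coding RNAs, pseudogenes or genes of little known function, with the second lowest median difference of the groups, -0.64. Dnm3os, a long non-coding RNA antisense to Dnm3 and the host of microRNAs, had 7.79, 7.23 and 7.44 in Bahd1-KO and 8.15, 8.25 and 7.97 in Bahd1-WT (-0.64 ± 0.16, SE). The pseudogenes Pnet-ps and Pisd-ps3 had differences of -0.91 and -0.64. Pnet-ps had 6.67, 5.93 and 6.10 in Bahd1-KO and 7.16, 7.38 and 6.91 in Bahd1-WT, measured with only 8 probes, the fewest of any member. Pisd-ps3 had 8.88, 8.38 and 8.49 in Bahd1-KO and 9.16, 9.19 and 9.31 in Bahd1-WT. It overlaps Sfi1 in the annotation of the table, and Sfi1 itself had overlapping arrays and a difference of 0.18. Pseudogenes share sequence with their parent genes, so the source of their signal is uncertain.

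Fam180a and Zcchc5, a retrotransposon-derived Gag-like gene, rested in part on 1 array. Fam180a had 5.81, 5.88 and 5.55 in Bahd1-KO and 6.20, 6.45 and 7.41 in Bahd1-WT, and its difference of -0.94 was -0.58 without Bahd1-WT 3. Zcchc5 had 6.84, 6.55 and 6.23 in Bahd1-KO and 6.96, 7.07 and 8.07 in Bahd1-WT, and its difference of -0.83 was -0.47 without that array. Both genes were highest in Bahd1-WT 3 and lowest in Bahd1-KO 3. D030056L22Rik was steadier, with 7.43, 6.98 and 6.88 in Bahd1-KO and 7.94, 7.73 and 7.80 in Bahd1-WT (-0.73 ± 0.16, SE). AW551984 had 8.06, 7.90 and 7.84 in Bahd1-KO and 8.14, 8.55 and 8.90 in Bahd1-WT (-0.59), and Ankrd16, an ankyrin repeat protein, had 6.34, 6.03 and 6.21 in Bahd1-KO and 6.40, 6.77 and 6.96 in Bahd1-WT (-0.52). For both, Bahd1-WT 1 was within 0.1 of the highest Bahd1-KO array. The serine protease gene Prss53 (-0.36), the predicted gene Gm3435 (-0.35) and Ypel3 (-0.31) had the smallest differences. Prss53 had 9.20, 9.09 and 9.09 in Bahd1-KO and 9.35, 9.42 and 9.68 in Bahd1-WT. Gm3435 had 7.97, 7.65 and 7.60 in Bahd1-KO and 8.08, 8.07 and 8.12 in Bahd1-WT. Ypel3 had 8.80, 8.59 and 8.52 in Bahd1-KO and 8.86, 9.00 and 8.99 in Bahd1-WT, so its Bahd1-KO 1 value came within 0.063 of Bahd1-WT.

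**Figure D3:**
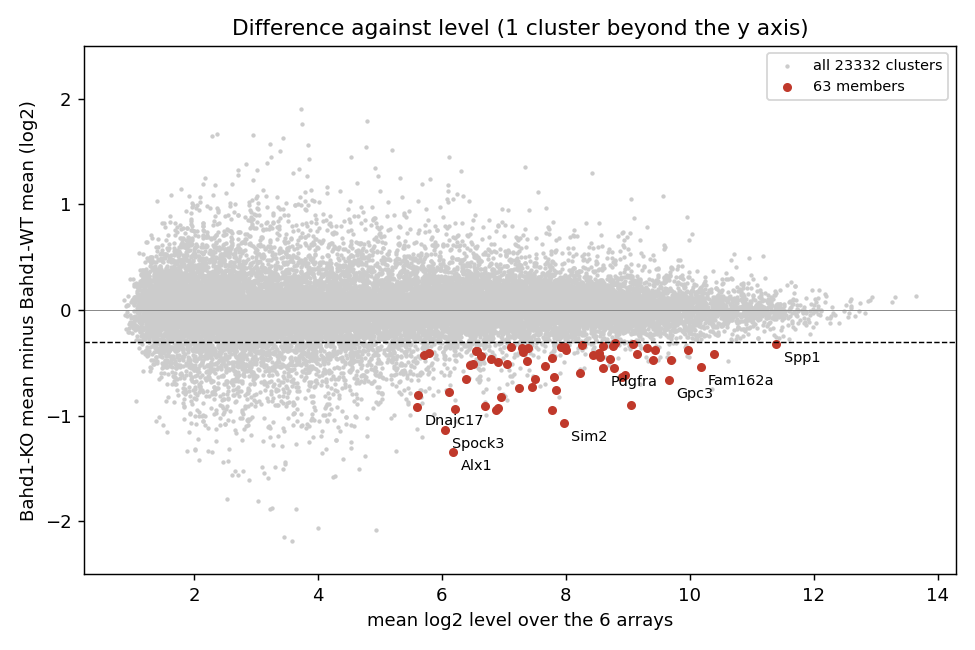
Difference of the means (Bahd1-KO minus Bahd1-WT, log2) against the mean log2 level over the 6 arrays, for all 23332 clusters (grey) and the 63 members (red); the dashed line is the limit of -0.3. The members lie in the brighter part of the array and below the line by the rule, between -1.34 and -0.31.

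The members were bright clusters (signal also depends on the probes, so this is no ranking of transcript amounts): their mean signal ranked between percentile 55.6 and 99.4 of all clusters, with a median of 78.7, whereas of the 696 clusters that met the same conditions 276 were above the median brightness. The comparison table holds only rows that the study's own LPE test called, and that test judges a gene by genes of like brightness. The members also varied more within a genotype than clusters of like brightness did. Their pooled within-genotype SD had a median of 0.180 (0.070 to 0.50), and the 200 clusters next above and the 200 next below in brightness had 0.104; 6 of the 63 members were below their neighbours. This spread is what the limma fit weighs and the LPE test does not.

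The arrays of a genotype did not share the extremes evenly over the members, which the rule picked by these same values. Among the 3 Bahd1-KO arrays, Bahd1-KO 3 was the lowest for 35 of the 63 members (55.6%). The share was 35.9% of all clusters and 40.9% of the 633 other clusters that met the same conditions. Bahd1-KO 1 was the highest for 31 (49.2%), against 38.2% and 41.2% of these 2 sets. Among the 3 Bahd1-WT arrays, Bahd1-WT 3 was the highest for 44 (69.8%), against 35.8% of all clusters and 43.4% of the 633 other clusters that met the same conditions. Bahd1-WT 1 was the lowest for 35 (55.6%), against 35.3% and 36.3% of the same 2 sets. The median place relative to the genotype's mean was 0.070, 0.009 and -0.083 for Bahd1-KO 1, 2 and 3 and -0.11, -0.047 and 0.13 for Bahd1-WT 1, 2 and 3. Members that hold both extremes, lowest in Bahd1-KO 3 and highest in Bahd1-WT 3, were 21 of 63. This joint count was not made for all clusters or for the 633 others, so nothing is read from it.

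By gene group, with no test of a difference between groups, Bahd1-KO 3 was the lowest array for 8 of the 9 glycogen, nutrient and stress genes, all except Cdkn1b, beside 35 of all 63 members. Bahd1-WT 3 was the highest for 9 of the 11 secreted and matrix genes, 6 of the 7 developmental factors, 7 of the 9 receptors, surface proteins and transporters and 3 of the 4 other nuclear regulators, all near the 44 of 63 over all members. Leaving out 1 array changed the difference by over 1.5 times for 8 members: Fam180a, C1qtnf3, Zcchc5, Enpep, Gpc3 and Aspn without Bahd1-WT 3, and Gng5 and Pygl without Bahd1-KO 3. In each of the 8 the difference became smaller, and it stayed below 0. The members share their arrays, so that these counts are not independent of one another.

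**Figure D4:**
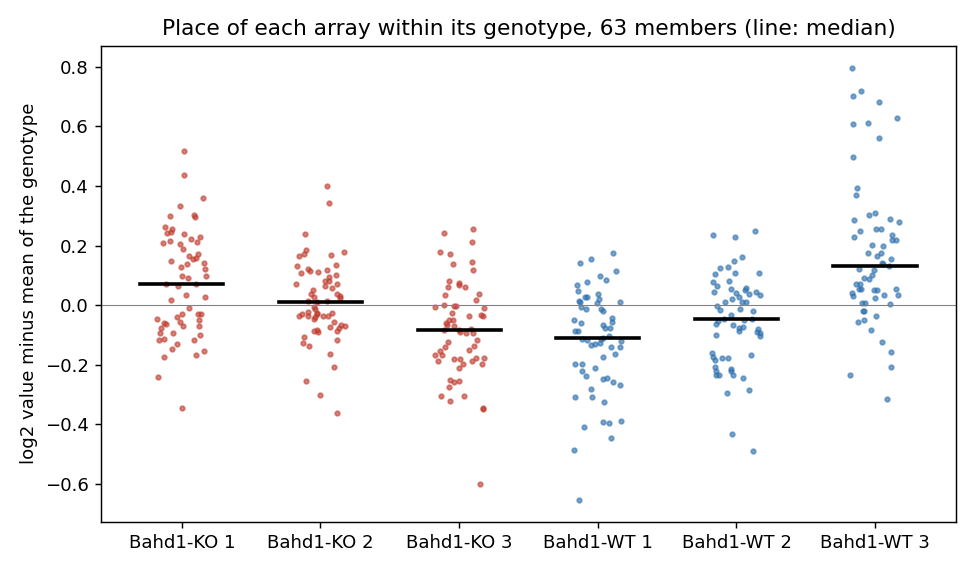
Log2 value of each of the 63 members minus the mean of its genotype, for the 3 Bahd1-KO arrays (red) and the 3 Bahd1-WT arrays (blue); each point is a member and the black line the median. The medians are 0.070, 0.009 and -0.083 in Bahd1-KO and -0.11, -0.047 and 0.13 in Bahd1-WT, and the longest upper tail is that of Bahd1-WT 3.

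Since the Y-linked level divides both genotypes, the difference was also taken among arrays of like level, with no test. The arrays with a low level gave Bahd1-KO 1 against Bahd1-WT 1 and 3, and those with a high level Bahd1-KO 2 and 3 against Bahd1-WT 2. The median difference of the members was -0.43 in the first and -0.49 in the second, and a difference at or under -0.3 was found in 46 and in 56 of the 63 members. By the rule the difference stays below 0 in both. Its size was not the same: the 2 differences were more than 0.3 apart for 25 members, with 30 members lower in the first and 33 in the second.

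Alx1 differed by -1.81 among arrays of low Y-linked level and by -0.94 among those of high level. Dnajc17 (-1.27 and -0.42), Enpep (-1.12 and -0.24), Sim2 (-1.36 and -0.74) and Ccl3 (-1.02 and -0.49) were of the same kind. The opposite held for Gng5, at -0.17 and -1.30, and likewise for Pnet-ps (-0.36 and -1.36), Srsf5 (-0.24 and -0.98), Dnm3os (-0.27 and -0.92) and Hyi (-0.20 and -0.75), in which Bahd1-KO 1 was the highest Bahd1-KO array. Spock3 (-1.26 and -1.12), Slc40a1 (-0.84 and -0.83), Ppp1r3c (-0.91 and -0.80), Ero1l (-0.50 and -0.50) and Txnip (-0.43 and -0.46) had much the same difference in both. With 1 array on one side of each split, the part of the Y-linked level and that of the single embryo cannot be told apart.

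**Figure D5:**
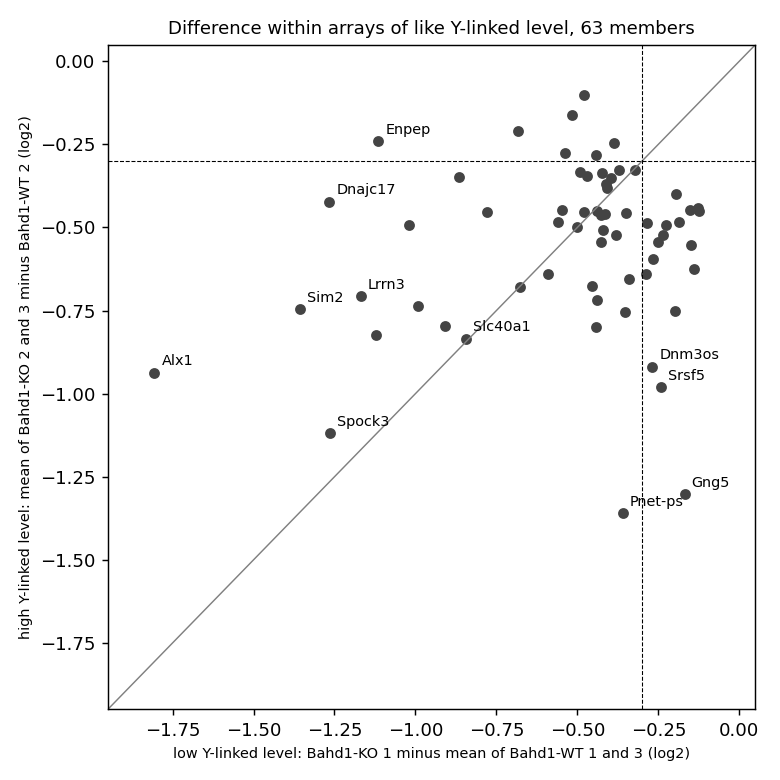
Difference of each of the 63 members (Bahd1-KO minus Bahd1-WT, log2) among the arrays with a low level of Y-linked genes (x axis) and among those with a high level (y axis); the diagonal marks equal differences and the dashed lines -0.3. Spock3 and Slc40a1 lie near the diagonal, Alx1 and Dnajc17 above it with -1.81 and -1.27 on the x axis, and Gng5 and Pnet-ps below it with -1.30 and -1.36 on the y axis.

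By position the members lay on 20 chromosomes, and Zcchc5, Gpc3, Ogt and Mcts1 are on the X. The most on any one was 6, of 23 named genes on chromosome 12, beside 63 of 491 over all. Only 1 pair of members lay within 500 kb of each other, Zfp101 and Angptl4, 379 kb apart on chromosome 17. This spacing depends on the genes left out by name, which met the same conditions. Among these are neighbours: Hoxa2, Hoxa4, Hoxa5, Hoxa6, Hoxa7 and Hoxa9 on chromosome 6, and Dlk1, Meg3 and Rtl1 on chromosome 12. Chst14, 244 kb from Dnajc17, was left out too. The members alone therefore do not show whether the lower genes cluster. Most named genes were higher in mean (354 of 491), and several next to a member differed the other way with arrays apart. Besides Ppbp beside Pf4, examples were Ssx2ip (0.49) at 59.8 kb from Gng5, Gprc5a (0.61) at 119.9 kb from Cdkn1b, Pfkfb3 (0.49) at 221 kb from Ankrd16 and Cbr3 (0.49) at 394 kb from Sim2. Next to Aspn, the proteoglycan genes Omd (-0.89, 14.9 kb) and Ogn (-0.28, 40.4 kb) were lower in mean like Aspn, with overlapping arrays. Omd had 4.83, 5.31 and 4.87 in Bahd1-KO and 5.19, 5.77 and 6.72 in Bahd1-WT, and Ogn 10.56, 10.74 and 10.52 in Bahd1-KO and 10.67, 11.00 and 10.98 in Bahd1-WT. Distances are those of the table's annotation, whose genome build is not given in the sources used here.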

How the data were processed

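RNA of primary fibroblasts of 3 Bahd1-KO embryos and 3 Bahd1-WT embryos was hybridised to 1 Mouse Exon 1.0 ST array each. The authors computed the deposited log2 values with RMA (background correction, normalization between arrays and summary of probes per transcript cluster at the gene core level); the version is not given in the sources used here. The deposited value table holds 23332 clusters. The deposited comparison table names 491 of them, those called by the authors' LPE test after unknown and EST annotations were dropped. Both tables hold the same log2 values (largest difference 0), and the count of probes per cluster was taken from it. Its SDs, fold changes, p-values and z-scores were not used. A summary on the log2 scale compresses the differences of dim genes.

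Groups came from the sample labels. Members were found by the rule given in the report, and members and lists were chosen with earlier results of these data known; the gene groups were assigned by hand from the descriptions once seen. The members are named except 1, which is not reported here, and values per array are given for the 25 with the lowest difference, up to 3 further members of each group and 3 on either side of the limit, and for a few others that a comparison rests on, chosen after their values were seen. All differences are Bahd1-KO minus Bahd1-WT means. Standard errors and the calls over all clusters are from limma 3.58.1 in R 4.3.3 (lmFit and eBayes on the log2 values, two-sided, Benjamini-Hochberg, threshold 0.05, no filter), tested on simulated data first. The rebuilt LPE test took the variance from bins of 1% of the clusters by brightness, with spline smoothing (10 degrees of freedom), and 1.57 times the variance of a mean for a median. An exact permutation test of 3 against 3 arrays cannot give a two-sided p below 0.1. The alternatives were a trended and robust prior, the rebuilt LPE test, bright clusters only, other normalizations, other limits, each array left out, the replicate number as a block, and the Y-linked level as a covariate. The split by Y-linked level (above or below 5) was added after seeing the data. Replicate numbers did not pair the arrays. Tables were handled in Python 3.11.15 with pandas 2.3.3. The number of arrays limits the precision.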

Additional observations from a re-analysis of the deposited data

How the results depend on the processing

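No result reversed. The number of clusters called over all clusters was 0 lower and 0 higher in the limma fit, under both other normalizations, the trended and robust prior, the Y-linked covariate and without any 1 array (0 to 0). It became 176 lower and 208 higher with the rebuilt LPE test. Among the 11666 clusters above the median brightness, fitted by themselves, it was 7 lower and 29 higher. At an unadjusted p under 0.05, limma gave 591 lower and 1390 higher there, against 898 and 1527 over all 23332 clusters. The reason for the change was not tested, and how many members are among the 7 was not counted. With the replicate number as a block the count of calls was again 0 lower and 0 higher, with 849 lower and 1249 higher at an unadjusted p under 0.05, and the median difference of the members stayed at -0.48. The numbers do not pair the arrays: the deviations of same-numbered arrays correlated at -0.00052, 0.027 and 0.00022. The number of members, 63, was 30 with a limit of -0.5, 67 with -0.2, 94 if arrays may overlap, 73 after a second quantile normalization and 68 after centring on array medians. Without 1 array it was 62 to 95, the highest being without Bahd1-WT 1. The median difference without 1 array was -0.56 (without Bahd1-KO 1) to -0.41 (without Bahd1-WT 3). All 63 members stayed below 0 in every setting, which the rule largely fixes; 55 stayed at or under -0.3 without Bahd1-WT 3 and 60 with the Y-linked covariate.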

Other observations

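Several named genes related to the members had a difference of like size but overlapping arrays. Gadd45a, a p53 target of the stress response, measured 7.47, 7.08 and 6.92 in Bahd1-KO and 7.42, 7.68 and 8.24 in Bahd1-WT (-0.63). Pdk4, a kinase that turns off pyruvate dehydrogenase, had 7.56, 6.81 and 6.58 in Bahd1-KO and 7.13, 7.37 and 8.10 in Bahd1-WT (-0.55). In both, Bahd1-KO 3 was the lowest and Bahd1-WT 3 the highest of the 6 arrays, and Bahd1-KO 1 lay within the Bahd1-WT range. The matrix and signalling genes Sfrp4 (-0.65) and Matn2 (-0.37), and the membrane protein gene Itm2a (-0.70), were of the same kind.

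Kdm6a, an X-linked histone demethylase gene known to escape X inactivation, had 6.68, 6.13 and 5.94 in Bahd1-KO and 6.87, 6.11 and 6.89 in Bahd1-WT. Its 3 higher arrays were the 3 with a low level of the Y-linked genes.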
